A study of Brassica napus with 355 samples.

Results

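Qu is one of 16 accessions of Brassica napus that were grown well-watered (WW, pots held at 100% of water capacity) or water-limited (WL, 20% of capacity) and sampled for leaf RNA sequencing. Its genotype is labelled Quantum NE011. All libraries of this accession were taken, which gave 23 of the 354 libraries with a column of counts (355 were listed), 11 under WL and 12 under WW. Under WL there were 3 libraries at ZT1, ZT7 and ZT13 and 2 at ZT19 (replicates 1 and 3), and under WW 3 libraries at each time point, where ZT is the number of hours after dawn. The tissue was the tip of the youngest leaf, and each library is taken as a separate plant or pool, since the labels name 3 plants without tying them to libraries. The labels also give the growth conditions in conflicting ways, as 28 and 22 °C by day and night with 14 h days in one field and as 22 and 18 °C with 16 h days in another. No genotype, allele or chemical other than the water supply distinguished the WL and WW groups. The p-values of the tests within Qu measure the spread between these libraries only. Those that involve other accessions rest on the libraries of those accessions too.

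Plants that receive less water than they could use close their stomata through the hormone abscisic acid, grow less, and change how they store and move sugars. In the leaf, many of the genes involved follow the time of day under control of light and the circadian clock, so that a change under WL can be present at one hour and not at another. Brassica napus is an allopolyploid that carries a BnA subgenome inherited from B. rapa and a BnC subgenome inherited from B. oleracea, and most genes therefore have a near-identical partner (homoeolog) on the other subgenome. Gene identifiers that begin with BraA were taken as BnA and those that begin with Bo as BnC. None of the 106126 identifiers could be paired with a gene symbol (0 matched), so genes are named by identifier, and a function is given only where the gene stands in a functional list. Reads that mapped to several places were divided among them by the authors, so values of homoeologs and other near-identical copies can share reads.

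Total counts of the Qu libraries were between 11989213 and 25843518 under WL and between 8682136 and 25787624 under WW, and 1.74 to 6.06% of a library went to its 10 most counted genes. To check the time labels, each Qu library was compared with the mean profiles of the other accessions at the 4 time points, and 23 of 23 were most like the profile of their labelled time point. Levels are given as CPM, the count of a gene scaled to the same total in every library. Genes with enough counts in Qu numbered 55630, and the same set was used in every test of Qu, whereas the other accessions were each tested on a set of their own (52742 to 57061 genes). The leaf label could not be checked against marker genes, because the identifiers carry no names.

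Of the 23 libraries, 2 were singled out as standing apart from their time point. At ZT7, the log2 CPM of WW replicate 1 correlated at r = 0.859, 0.916 and 0.821 with the 3 WL libraries, and at r = 0.653 and 0.733 with the other WW libraries. At ZT19, WL replicate 1 correlated at r = 0.717 with WL replicate 3 and between 0.651 and 0.815 with the WW libraries, whereas WL replicate 3 correlated between 0.920 and 0.951 with the WW libraries. Each correlation is a description over 38315 genes, which share library depth and base composition. WW replicate 1 at ZT7 was therefore nearer to the WL libraries than to its own group, and the WL libraries at ZT19 were unlike each other. At ZT13, WL replicate 1 was likewise nearer to the WW libraries, at r = 0.863, 0.895 and 0.799. With the other WL libraries it was at r = 0.789 and 0.796. This ZT13 library was not counted among the 2 and was kept in the fits without them.

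The same 2 libraries stood out on a score made without Qu. In the other 15 accessions, the main direction in which libraries of 1 group differed from each other held 39.7% of that spread over 3000 genes, and each Qu library was placed on it, in units of SD. This axis score was chosen after the data had been seen. At ZT7 the score was 1.70, 2.59 and 1.60 in the WL libraries, against 2.61, -1.11 and -0.29 in the WW libraries. At ZT19 it was 2.21 and -1.57 in the WL libraries, against -1.32, -2.06 and -0.90 in the WW libraries. Averaged over time points the score was higher by 0.858 under WL (mean 0.439 ± 1.45 under WL, n = 11, and -0.429 ± 1.33 under WW, n = 12, SD), a difference within the spread between libraries (exact permutation test, two-sided, p = 0.127). In the other accessions the score was higher under WL by 0.559 on average (SD 0.686), in 11 of 15. The sign of the score had been set so that this average is positive, so its direction there is no separate observation. What sets the score was not tested. Many results that rest on these libraries are given with and without them. Others are given with all libraries only, among them the unadjusted count at ZT19 and the time-of-day peaks.

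**Figure D1:**
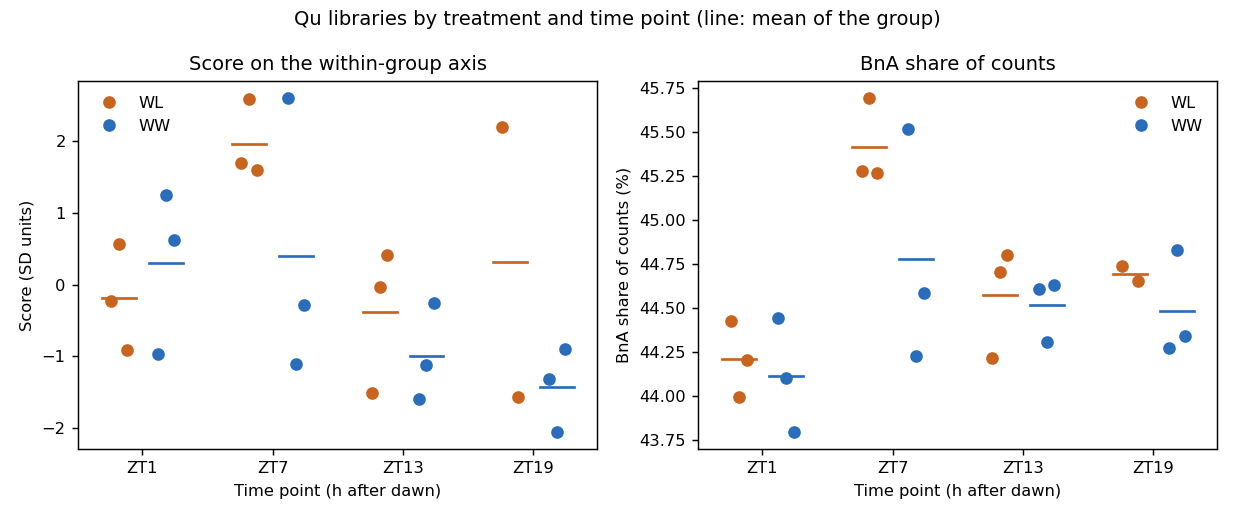
Score of each Qu library on the within-group axis of the other accessions (left, SD units) and share of counts on BnA identifiers (right, %), by time point, with WL to the left of WW, 1 point per library and a line at the mean of each group. WW replicate 1 at ZT7 lies with the WL libraries, above the other WW libraries of that time point, in both panels, and WL replicate 1 at ZT19 lies above the rest of its time point on the score.

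The first comparison asked which genes had another level under WL than under WW when the 4 time points were averaged, each gene being tested with the quasi-likelihood F test of edgeR and p-values adjusted over all 55630 genes (Benjamini-Hochberg). No gene passed an adjusted p of 0.01, the threshold for a call (0 genes, 0%). At an adjusted p of 0.05, 15 genes passed (0.027%), of which 2 were higher (0.0036%) and 13 lower (0.0234%) under WL. At an unadjusted p of 0.05 there were 7394 genes (13.3%), 3205 higher (5.76%) and 4189 lower (7.53%). DESeq2 called 395 genes at an adjusted p of 0.01. On simulated counts it made 28 false calls in level, against 2 with edgeR, and recovered 100 of 100 changed genes, against 91. Over all genes the median size of the log2 fold change was 0.203, with a median SE of 0.225, so a typical difference was smaller than its error. Higher genes made up 49.3% of all genes.

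The 2 genes that rose under WL at this looser threshold are both on BnC. Bo2g023100 had 4.21 to 16.9 CPM under WL with a median of 11, against 2.31 to 7.39 CPM under WW with a median of 4.42. Its log2 fold change was 1.17 (SE 0.196, edgeR adjusted p = 0.0476). Bo6g121320 had 9.96 to 108 CPM under WL with a median of 23.5, against 5.31 to 18.9 CPM under WW with a median of 13.2, a log2 fold change of 1.23 (SE 0.206, edgeR adjusted p = 0.0476). The groups overlapped at ZT13 for Bo2g023100 and at ZT19 for Bo6g121320, and were apart at the other time points. Genes picked by a small p tend to have groups that are apart. The share of all genes without overlap was not counted, here or in what follows. At ZT7 Bo6g121320 had 21.4, 45.5 and 108 CPM under WL, against 9.96, 11.9 and 8.56 CPM under WW, and the values of 45.5 and 108 CPM were the highest of the 23 libraries.

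Among the next genes that were higher at all 4 time points, none passed an adjusted p of 0.05 (BraA09g46900R, BraA07g34450R, BraA01g15840R and Bo4g048370 each had an edgeR adjusted p of 0.0605). BraA09g46900R had a median of 16.4 CPM under WL and 7.61 CPM under WW, and BraA07g34450R 7.51 CPM under WL and 0.690 CPM under WW. BraA07g34450R was at 9.57 CPM in WW replicate 1 at ZT7, the library that resembled the WL group, and at 2.16 CPM or less in the other 11 WW libraries. BraA01g15840R had a median of 0.979 CPM under WL, against 0.0882 CPM under WW. Bo4g048370 was detected in every WL library, at 0.140 to 1.31 CPM, and was at 0 in 9 of 12 WW libraries. Its groups did not overlap at any time point, but its counts were low throughout.

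The 13 genes that fell include the 2 with the smallest p of all. Bo5g005740 had 9.66, 10.5 and 14.4 CPM at ZT1 under WL, against 23.9, 60.3 and 41.6 CPM under WW. At ZT7 it had 1.13, 0.337 and 0.451 CPM under WL, against 9.89, 4.56 and 44.0 CPM under WW. The groups did not overlap at any of the 4 time points, WW replicate 1 at ZT7 included, and the level fell by 3.07 on the log2 scale (SE 0.415, edgeR adjusted p = 0.0213). Bo5g027480, which was also apart at every time point, fell by 1.06 (SE 0.144, edgeR adjusted p = 0.0213), with a median of 9.43 CPM under WL and 15.6 CPM under WW. Within ZT13 it had 2.94, 3.87 and 3.80 CPM under WL, against 10.5, 10.2 and 9.39 CPM under WW. Bo3g022040 was the third gene with no overlap at any time point. It ranged over 0 to 7.82 CPM under WL with a median of 0.539, against 0.922 to 26.2 CPM under WW with a median of 7.87, and fell by 3.20 (SE 0.494, edgeR adjusted p = 0.0456).

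BraA05g09050R, Bo7g107100 and Bo7g030980 fell by 1.67, 0.99 and 3.72 (edgeR adjusted p = 0.0456 each). BraA05g09050R had 2.94, 3.91 and 3.55 CPM at ZT7 under WL, against 40.9, 26.1 and 36.9 CPM under WW, and its groups overlapped only at ZT13. Bo7g107100 had a median of 4.60 CPM under WL and 7.79 CPM under WW, and its groups were apart at ZT7 and ZT19. Bo7g030980 had 0.136 to 3.85 CPM under WL, against 0.629 to 50.2 CPM under WW, and was apart at all time points but ZT1. The other 7 genes that fell were BraA10g04820R, BraA10g04540R, BraA02g07690R, Bo9g175440, BraA09g19060R, Bo4g147040 and BraA03g13980R. The smallest change was that of BraA09g19060R, which fell by 0.67, and the largest that of BraA02g07690R, which fell by 4.81. All 15 genes had the same sign at all 4 time points, a property shared by 10.2% (higher) and 11.9% (lower) of all genes tested. When each library was left out in turn, each of the 15 stayed at or under 0.05 in 4 to 13 of the 23 fits.

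**Figure D2:**
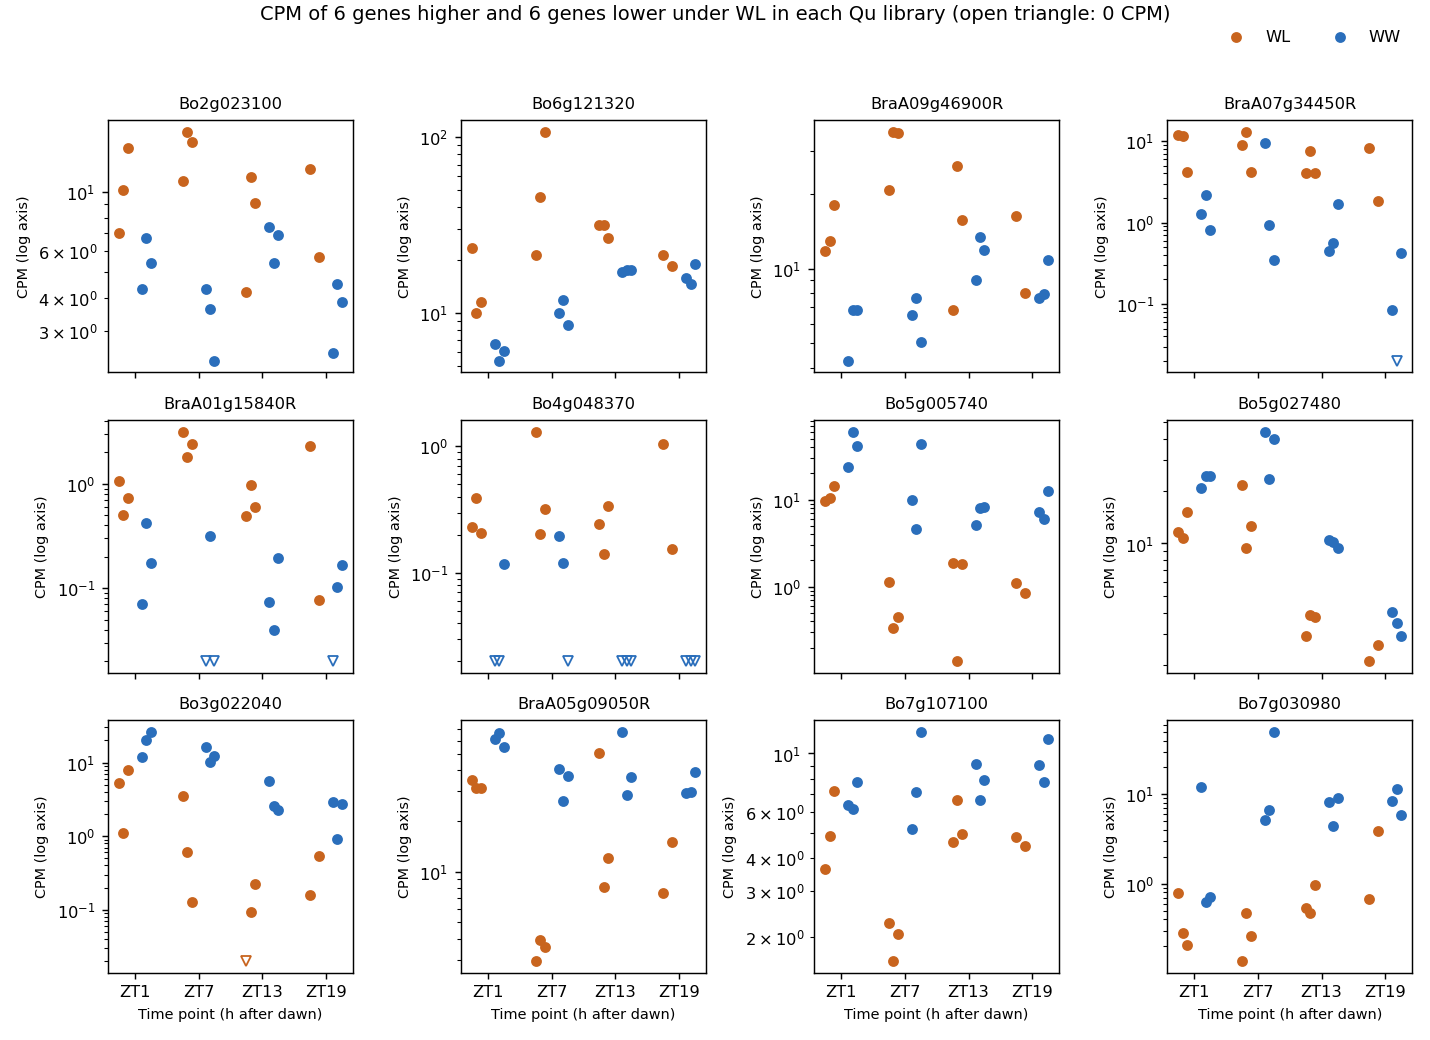
CPM (log axis) of the 6 genes with the smallest p among those higher at all 4 time points and the 6 among those lower, with WL to the left of WW at each time point and 1 point per library (open triangles mark 0 CPM). Bo5g005740, Bo5g027480, Bo3g022040 and Bo4g048370 show no overlap between WL and WW at any time point. The share of all genes without overlap was not counted.

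How many genes passed depended on single libraries. With all libraries, 15 genes passed an adjusted p of 0.05 in level, and without WL replicate 3 at ZT19 there were 558, without WW replicate 1 at ZT7 175, without WL replicate 1 at ZT13 162 and without WW replicate 2 at ZT7 110. With any other library left out there were 0 to 14. Leaving out WL replicate 3 at ZT19 leaves 1 library in that group, which is then assumed to vary like the others. With both libraries that stood apart left out, 1 gene passed, and with the axis score as a covariate 291 passed, the 15 among them. The balance of directions at an unadjusted p of 0.05 also moved, to 5227 higher and 5165 lower without WW replicate 1 at ZT7, against 3205 higher and 4189 lower with all libraries. At an adjusted p of 0.01 the leave-out fits called 0 to 5 genes.

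**Figure D3:**
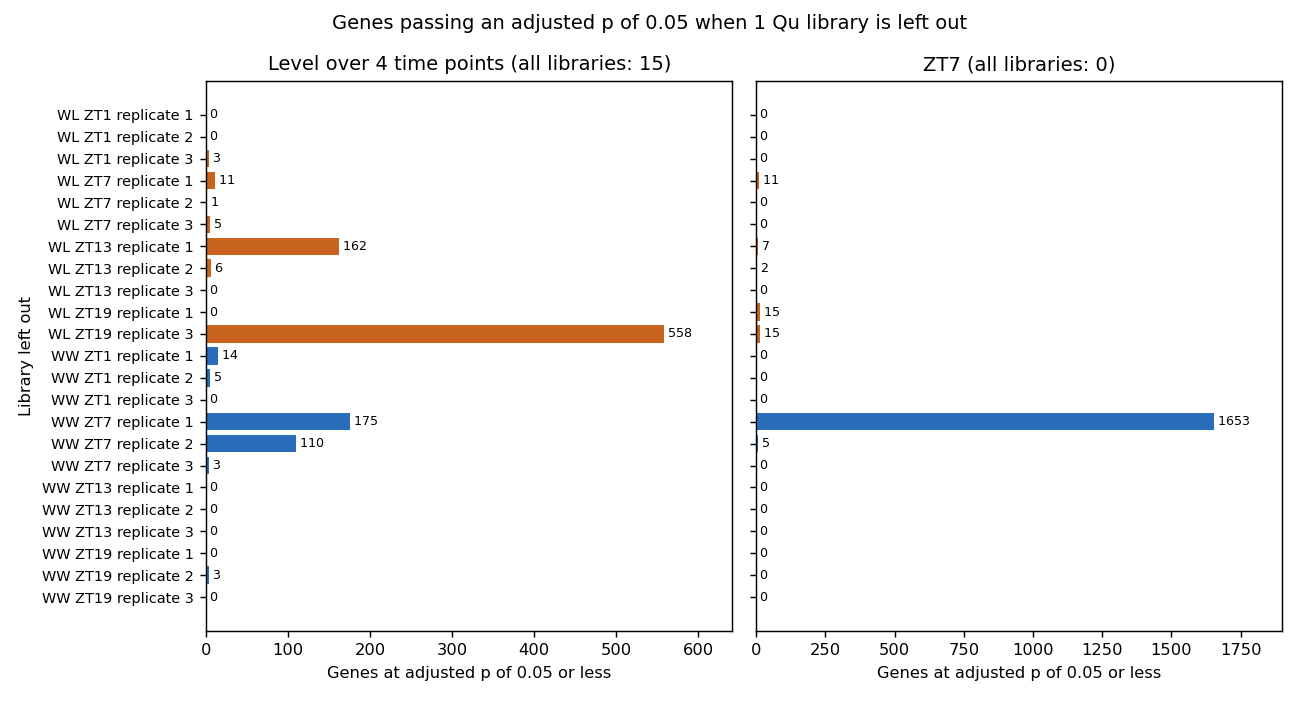
Number of genes in Qu that passed an adjusted p of 0.05 when the library named at the left is left out, for the level over the time points (left panel) and for ZT7 (right panel), with WL libraries above WW libraries. Without WW replicate 1 at ZT7, 1653 genes passed at ZT7, against 0 with all libraries.

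The next comparisons took the time points one by one. At ZT1, ZT7, ZT13 and ZT19 no gene passed an adjusted p of 0.01 or of 0.05 in edgeR (0 of 55630, 0%, each). The count at an unadjusted p of 0.05 was 2091 at ZT1 (3.76%), 7857 at ZT7 (14.1%), 2265 at ZT13 (4.07%) and 1821 at ZT19 (3.27%), and DESeq2 called 9, 686, 4 and 7 genes at these time points at an adjusted p of 0.01. The smallest edgeR adjusted p was 0.11 at ZT1, 0.0715 at ZT7, 1 at ZT13 and 0.974 at ZT19. ZT7 thus held the most genes with small p-values, and of its 7857 genes 4932 were lower (8.87% of all genes) and 2925 higher (5.26%) under WL. At ZT7 the axis score was itself higher by 1.561 under WL. Used as a covariate, it can take up part of a WL difference. The balance of directions depended on the libraries and on this covariate. With the axis score as a covariate it turned round, to 3834 lower and 5282 higher (261 lower and 987 higher at an adjusted p of 0.05), and without replicate 1 of every group it was 7839 lower and 8090 higher. Against the other accessions, the share of genes at an unadjusted p of 0.05 was above that of 13 of 15 at ZT7, above that of 1 at ZT1 and at ZT13, and above that of 2 at ZT19. Some other accessions had fewer libraries in a group, as Ab and St did under WL at ZT7. Such shares depend on the number of libraries too.

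The ZT7 result rests on WW replicate 1. Without that library 14 genes passed an adjusted p of 0.01 (0.0252%), 1 higher (0.0018%) and 13 lower (0.0234%), and 1653 passed 0.05 (2.97%), 585 higher (1.05%) and 1068 lower (1.92%). Of the 1653, 1646 had the same sign with all libraries, but both fits share every other library, so much of this was fixed beforehand. The median size of the log2 fold change at ZT7 was 0.55 without the library and 0.399 with it. This library was singled out because it resembled the WL group. The counts and p-values without it therefore follow in part from that choice. The gene with the smallest p, Bo5g137400, had 10.6, 10.6 and 5.93 CPM under WL, against 53.6 and 147 CPM in WW replicates 2 and 3 and 22.8 CPM in WW replicate 1. Without WW replicate 1 it fell by 3.50 on the log2 scale (SE 0.388, edgeR adjusted p = 0.00363). The 1 gene that rose, Bo5g111260, had 11.3, 8.15 and 8.64 CPM under WL, against 1.04 and 1.74 CPM in WW replicates 2 and 3 and 6.16 CPM in WW replicate 1. BraA04g16840R had 34.3, 34.3 and 40.0 CPM under WL, against 153 and 193 CPM in those 2 WW libraries and 36.5 CPM in WW replicate 1, a level among the WL libraries. The cause was not tested, and every library was kept in the group its label gives.

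With all libraries in, the genes with the smallest p at ZT7 were lower or higher in every WL library. Bo7g107100 had 2.26, 1.62 and 2.06 CPM under WL, against 5.18, 7.12 and 12.1 CPM under WW. Bo4g031140 had 22.2, 22.8 and 17.8 CPM under WL, against 182, 49.1 and 177 CPM under WW, with log2 fold changes of -2.02 (SE 0.310) and -2.70 (SE 0.426) for the 2 genes. Bo7g054180 had 4.26, 5.39 and 4.77 CPM under WL, against 1.64, 1.68 and 2.20 CPM under WW (log2 fold change 1.39, SE 0.222). None of these passed the threshold (edgeR adjusted p = 0.0715), although WW replicate 1 did not overlap the WL libraries in any of the 3 genes. Outside ZT7 the groups of Bo4g031140 and Bo7g054180 overlapped.

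At ZT1, Bo7g021400 had 20.0, 103 and 81.3 CPM under WL, against 8.21, 8.45 and 13.9 CPM under WW (log2 fold change 2.74, SE 0.418, edgeR adjusted p = 0.11). At the other time points it lay between 5.78 and 11.6 CPM in both treatments, so the high values were seen in the ZT1 libraries under WL. Bo4g070350 followed the same course, with 6.63, 19.4 and 10.8 CPM at ZT1 under WL, against 0.991, 1.54 and 1.17 CPM under WW (log2 fold change 3.31, SE 0.506, edgeR adjusted p = 0.11). Bo7g111200 was lower, with 4.09, 1.51 and 4.38 CPM under WL, against 15.1, 10.8 and 14.5 CPM under WW. The groups of these 3 genes did not overlap at ZT1, but the genes were picked by p, which favours such groups.

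At ZT13 the genes with the smallest p were Bo5g027480, described above, and Bo6g012220, which had 1.81, 2.61 and 1.64 CPM under WL, against 40.8, 13.8 and 21.3 CPM under WW. In the other direction, BraA06g01690R had 23.5, 23.2 and 28.5 CPM under WL, against 10.3, 7.46 and 9.47 CPM under WW, and Bo9g011430 had 3.92, 5.18 and 10.4 CPM under WL, against 0.0739, 0.439 and 0.621 CPM under WW. All 4 were apart between the groups at ZT13 and had an edgeR adjusted p of 1. At ZT19, where WL held 2 libraries, BraA10g29760R had 2.21 and 1.54 CPM under WL, against 0.385, 0.410 and 0.335 CPM under WW (edgeR adjusted p = 0.974). Bo8g068500 had 3.95 and 4.31 CPM under WL, against 1.11, 1.64 and 1.68 CPM under WW. Bo5g143390 was at 0 and 0.077 CPM under WL, against 1.2, 1.43 and 1.34 CPM under WW, and BraA10g17010R at 0.421 and 0.231 CPM under WL, against 1.37, 1.33 and 2.18 CPM under WW. These 4 genes also did not overlap between the groups, without passing the test. The genes of both time points were picked by p, which favours groups that are apart. How many of all genes were apart was not counted, and with few libraries many can be.

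Whether the response differed between time points was tested as the interaction of treatment and time point. No gene passed an adjusted p of 0.01 or 0.05 in edgeR (0 of 55630, 0%), 2064 genes (3.71%) reached 0.05 before adjustment, and 5 were called by DESeq2. Bo6g010780 had the smallest p, and among the first 4 genes were also Bo4g181850, Bo7g021400 and Bo3g004030 (edgeR adjusted p = 0.999 each). Bo3g004030 had 2.02, 5.65 and 6.15 CPM at ZT1 under WL, against 0.425, 0.559 and 0.234 CPM under WW, and 0 and 0.154 CPM at ZT19 under WL, against 0.513, 0.307 and 1.42 CPM under WW. The order of the groups of Bo3g004030 thus turned round between ZT1 and ZT19. Across all 55630 genes the log2 fold changes at 2 time points correlated between -0.152 (ZT1 and ZT19) and 0.366 (ZT7 and ZT19), a description across genes that are not independent.

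The time of day was resolved by the same libraries. Within WL, 1384 genes (2.49%) changed between time points at an edgeR adjusted p of 0.01, and within WW 1434 genes (2.58%). Single libraries moved these counts. Within WL 647 genes were called without WL replicate 2 at ZT1, 692 without WL replicate 3 at ZT1, 896 without WL replicate 3 at ZT13 and 909 without WL replicate 2 at ZT7. Within WW 698 were called without WW replicate 3 at ZT1 and 706 without WW replicate 2 at ZT1. With replicate 3 of every group left out, 8 genes were called within WL and 31 within WW. The counts that follow are those with all libraries and were not repeated without them. Of the genes called, 928 changed in both treatments, 67.1% of the WL genes and 64.7% of the WW genes. The time point with the highest mean was the same in both treatments for 821 of the 928 (88.5%), 6 h later under WL for 43, 6 h earlier for 61 and 12 h away for 3. The genes peaked mostly at ZT1, 735 under WL (53.1%) and 646 under WW (45%), and least at ZT19, 43 under WL and 61 under WW. The median range from the lowest to the highest time point was 2.98 under WL and 2.97 under WW (log2) over the 928 genes. Of 25790 BnA genes tested, 640 were called under WL and 681 under WW. Of 29768 BnC genes tested, 744 were called under WL and 753 under WW, so BnC had more genes tested as well as more called.

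The gene with the strongest time-of-day change was the same in both treatments. Bo3g001090 had 219, 315 and 253 CPM at ZT1 under WL, against 221, 409 and 393 CPM under WW. By ZT13 it was at 2.01, 1.26 and 1.79 CPM under WL, against 1.77, 1.60 and 1.86 CPM under WW, and at ZT19 at 51.5 and 26.5 CPM under WL, against 43.0, 23.7 and 41.9 CPM under WW. The treatments overlapped at ZT1, ZT13 and ZT19 and were apart at ZT7, at 10.4, 7.75 and 4.96 CPM under WL, against 13.6, 11.1 and 14.3 CPM under WW. Of the genes in these lists the smallest edgeR adjusted p of the interaction test was 0.999, so no shift in the peak passed a test of its own.

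The level responses of the other 15 accessions gave a list of genes to look up in Qu that owes nothing to the Qu libraries. Genes called there at an edgeR adjusted p of 0.01 in at least 3 accessions numbered 30 higher and 44 lower under WL, of which 29 and 44 were tested in Qu. In Qu, 28 of the 29 were higher, with a median log2 fold change of 1.2, and 44 of the 44 were lower, with a median of -1.23. Together 98.6% of 73 had the same direction, whereas 49.3% of all genes were higher under WL in Qu. An unadjusted p of 0.05 in the same direction was reached by 63 of the 73 (86.3%, against 13.3% of all genes in either direction), an adjusted p of 0.05 by 2. At single time points 69, 71, 69 and 67 of the 73 had that direction at ZT1, ZT7, ZT13 and ZT19, and 61 had it at all 4. When each of the other accessions was treated in the same way, the share with the same direction was between 95.8 and 100%. The share in Qu was within that range. With both Qu libraries that stood apart left out, 98.6% of the 73 again had the same direction, with medians of 0.952 and -1.1. The count at an unadjusted p of 0.05 is that with all libraries.

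Of the genes called higher in the most other accessions, BraA02g38550R had 0 to 3.21 CPM under WL in Qu with a median of 0.23, against 0 to 0.16 CPM under WW with a median of 0. Its log2 fold change in Qu was 4.65 (SE 1.09), a fitted value that depends on the added prior count because 7 of 12 WW libraries were at 0, and the other accessions gave 1.61 to 5.20. BraA04g27320R was at 0.269 to 2.08 CPM under WL, against 0 to 0.32 CPM under WW, with a log2 fold change of 2.13 (SE 0.451). BraA02g43370R had 14.3, 9.01 and 10.1 CPM at ZT1 under WL, against 0.354, 2.37 and 0.703 CPM under WW, but also 60.5 CPM in WW replicate 2 at ZT7. Bo6g107160 had a median of 3.88 CPM under WL and 0.488 CPM under WW (log2 fold change 1.96, SE 0.437). Bo2g026820, the most abundant of the 5, had 697, 310 and 224 CPM at ZT7 under WL, against 125, 25.8 and 109 CPM under WW. None of the 5 passed an adjusted p of 0.05 in Qu.

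Of the genes called lower in the most other accessions, BraA02g07690R had 0 to 3.08 CPM under WL in Qu with a median of 0.112, against 0.12 to 19.2 CPM under WW with a median of 6.08, and fell by 4.81 (SE 0.773, edgeR adjusted p = 0.0456). Bo7g030980, described above, was the other that passed. BraA07g23820R had a median of 0.112 CPM under WL and 3.45 CPM under WW, and BraA07g10820R 0.343 CPM under WL and 3.95 CPM under WW. Bo5g021040 had a median of 1.17 CPM under WL and 27.9 CPM under WW, with an exception of 42.5 CPM in WL replicate 3 at ZT1. The median size of the log2 fold change over the 73 genes was 1.21 in Qu and 1.34 in the median of the other accessions, and 41 of the 73 were smaller in Qu.

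**Figure D4:**
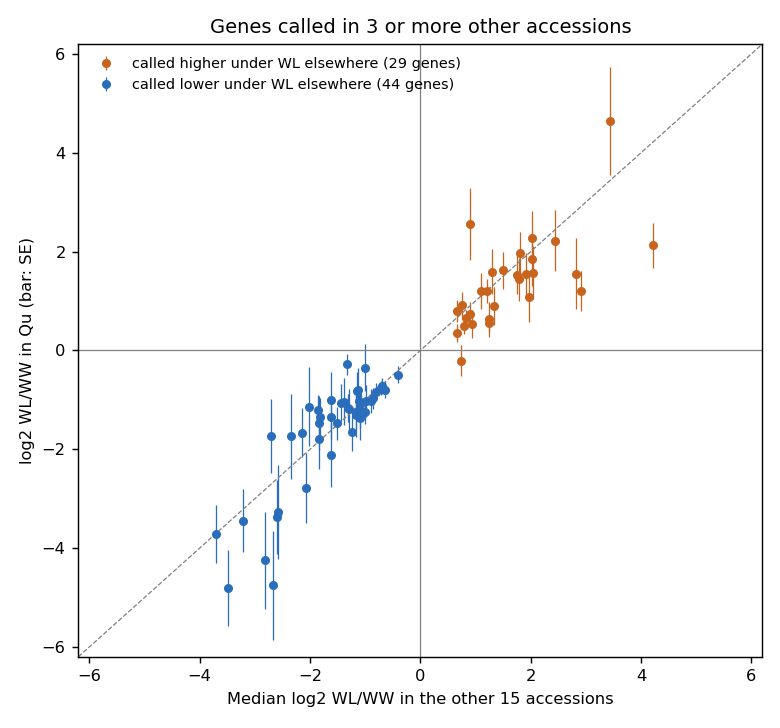
Log2 fold change (WL over WW) in Qu with its SE, against the median log2 fold change in the other 15 accessions, for the 73 genes called there in 3 or more accessions (dashed line: equal values). 72 of the 73 genes fall in the quadrants of equal sign, and the exception is Bo3g001800.

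The difference between Qu and the other accessions was then tested itself, as the level response of Qu minus the mean of the other 15 responses, over 354 libraries. No gene passed an adjusted p of 0.01 in edgeR (0 of 55630, 0%), 3 passed 0.05 (0.00539%), all higher, and 3080 (5.54%) reached 0.05 before adjustment, while limma-voom called 2 genes at an adjusted p of 0.01. The median size of the difference was 0.172, with a median SE of 0.249. This test takes libraries of all accessions as its units and holds no spread of responses between accessions. Its p-values therefore do not say whether Qu is unusual among accessions. The 3 genes were Bo3g055300 (0.56, SE 0.108), BraA06g17690R (0.75, SE 0.149) and BraA02g12260R (1.52, SE 0.303), each at an edgeR adjusted p of 0.0199. In Qu, Bo3g055300 had 5.24, 5.32 and 5.84 CPM at ZT1 under WL, against 5.24, 2.79 and 2.70 CPM under WW, so the lowest WL value was equal to the highest WW value to 3 digits. BraA02g12260R had 14.0, 41.2 and 168 CPM at ZT7 under WL, against 26.5, 26.0 and 8.10 CPM under WW, so that its ZT7 groups overlapped. Its log2 fold change was 1.56 in Qu, above all 15 of the others, which ranged from -0.39 to 0.87. Of the genes below 0, BraA07g08850R had the smallest p (-2.07, SE 0.464, edgeR adjusted p = 0.156).

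Seen against the other accessions, Qu called few genes in level. The number of genes called in level at an edgeR adjusted p of 0.01 was 0 in Qu and in 4 others, and above 0 in the other 11. Over all 15 others the median was 34 and the highest 2815. At an unadjusted p of 0.05 the share of Qu, 13.3%, was above that of 3 accessions, equal to that of 1 and below that of 11. The accessions held between 19 (St) and 24 (Ze) libraries, on which such counts also depend. The median size of the log2 fold change, 0.203, lay in the middle, above 7 accessions and below 8, and the biological coefficient of variation, 0.475, was above that of 10. Across genes, the level response of Qu correlated with those of the other accessions between r = 0.204 (Yu) and r = 0.693 (Mu), a description over 50245 to 53357 genes that share base composition and expression level.

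The study's table of functional terms of WL response modules, held here in part, gave 15 lists of genes. The study had chosen these genes on libraries of other accessions of this series, and the lists were chosen with earlier results known, so their directions are descriptions without a test. All members of each list were tested in Qu, 316 genes in all, and 1 of them passed an adjusted p of 0.05 in level (against 0.027% of all genes). Under WL 203 of the 316 were lower and 113 higher, with a median log2 fold change of -0.135, whereas over all genes 28213 were lower and 27417 higher, with a median of -0.00492. At an unadjusted p of 0.05, 53 were lower (16.8%, against 7.53% of all genes) and 14 higher (4.43%, against 5.76% of all genes).

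Genes of water deprivation, the nominal treatment, lay on both sides of 0 in level. Of 9 genes for the regulation of the response to water deprivation 4 were higher and 5 lower, with a median of -0.0371, and 3 of the lower ones and 0 of the higher ones had an unadjusted p of 0.05 (33.3% lower, against 7.53% of all genes). The median was 0.316 at ZT1, -0.476 at ZT7, -0.658 at ZT13 and -0.623 at ZT19, so that the list was above 0 at ZT1 and below it at the other time points. The member with the smallest p, BraA03g37420R, had 10.7 to 76.5 CPM under WL with a median of 21.6, against 22.9 to 93.7 CPM under WW with a median of 40.1 (log2 fold change -0.71, SE 0.243, edgeR adjusted p = 0.243). Of 8 genes for the response to cold or temperature 5 were higher and 3 lower, with a median of 0.0279.

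Defence and cell death genes were mostly lower under WL. Of 87 genes of immune and defence response, which recognise microbes and raise antimicrobial compounds, 80 were lower and 7 higher, with a median of -0.468, and 24 of the lower ones and 0 of the higher ones had an unadjusted p of 0.05 (27.6% lower, against 7.53% of all genes). All 13 genes of systemic acquired resistance, the spread of defence to distant leaves, were lower, with a median of -0.66. Of 38 genes of programmed cell death 36 were lower (median -0.392), and all 6 of leaf senescence, the dismantling of old leaves (median -0.367). Lower at an unadjusted p of 0.05 were 3 genes of systemic acquired resistance (23.1%), 4 of programmed cell death (10.5%) and 1 of leaf senescence (16.7%). The share of programmed cell death was thus near the 7.53% of all genes. Bo5g041130 of the immune list had 0.168 to 8.08 CPM under WL with a median of 0.783, against 0.489 to 12.3 CPM under WW with a median of 3.25, and Bo7g094930 of systemic acquired resistance 0.471 to 28.9 CPM with a median of 3.52 under WL, against 0.393 to 38.0 CPM with a median of 7.80 under WW. For both genes the highest WL value was that of WL replicate 3 at ZT19, the library that resembled WW. The lists share genes, so these counts are not separate observations.

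Autophagy, by which cells break down and reuse their own material, held the 1 list gene that passed. Of its 38 genes 33 were lower and 5 higher (median -0.165), and 12 of the lower ones had an unadjusted p of 0.05 (31.6%, against 7.53% of all genes). BraA09g19060R had 6.58, 5.93 and 6.41 CPM at ZT1 under WL, against 9.06, 13.5 and 13.7 CPM under WW. At ZT7 it had 5.16, 5.25 and 4.77 CPM under WL, against 10.9, 10.8 and 10.5 CPM under WW. It fell by 0.67 in level (SE 0.111, edgeR adjusted p = 0.0476), its groups were apart at ZT1, ZT7 and ZT13, and they overlapped at ZT19. By time point the autophagy list had a median of -0.289 at ZT1, -0.441 at ZT7, 0.0139 at ZT13 and 0.0597 at ZT19, so the lower values were those of ZT1 and ZT7.

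The lists of sugar genes lay on both sides of 0. Of 51 genes of monosaccharide metabolism 39 were higher (median 0.224), with 8 higher at an unadjusted p of 0.05 (15.7%, against 5.76% of all genes) and 1 lower, and of 26 of carbohydrate catabolism 21 (median 0.228). Of 10 genes of glyceraldehyde-3-phosphate metabolism, which links the Calvin cycle and glycolysis, 8 were higher (median 0.434), 6 of them at an unadjusted p of 0.05 (60% of the list, against 5.76% of all genes). BraA09g08110R of that list had 16.5, 15.6 and 22.1 CPM at ZT7 under WL, against 7.86, 9.92 and 7.17 CPM under WW, and its groups were apart at ZT1 and ZT7 (log2 fold change in level 0.75, SE 0.176, edgeR adjusted p = 0.116). BraA09g53530R, in both the monosaccharide and the carbohydrate catabolism list, had 17.7 to 84.3 CPM under WL with a median of 50.9, against 18.4 to 53.9 CPM under WW with a median of 30.0 (log2 fold change 0.68, SE 0.230, edgeR adjusted p = 0.237). Pectin and disaccharide genes were lower on balance, with 12 of 18 lower (median -0.215) for pectin and 9 of 10 lower (median -0.376) for disaccharide metabolism and transport. Lower at an unadjusted p of 0.05 were 5 pectin genes (27.8%) and 4 disaccharide genes (40%), against 7.53% of all genes. For the disaccharide list BraA01g25740R had a median of 6.17 CPM under WL and 15.5 CPM under WW (log2 fold change -1.05, SE 0.233, edgeR adjusted p = 0.102), with 30.9 CPM in WL replicate 3 at ZT19. Polysaccharide and glucan biosynthesis had 28 of 42 higher (median 0.0886), glycosylation 5 of 5 lower (median -0.447), and callose 5 of 8 higher (median 0.0492). At an unadjusted p of 0.05, 3 glycosylation genes were lower (60%, against 7.53% of all genes). Carbohydrate catabolism had 2 genes higher at that p (7.69%), near the 5.76% of all genes. Polysaccharide and glucan biosynthesis had 1 higher (2.38%) and 1 lower, and callose 0 either way.

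The medians of several lists depended on the libraries that stood apart and on the axis score. In level, monosaccharide metabolism had a median of 0.224 with all libraries, 0.173 with both libraries left out and -0.0733 with the axis score as a covariate. Carbohydrate catabolism had 0.228, 0.196 and -0.178 in the same order, and polysaccharide and glucan biosynthesis 0.0886, 0.0544 and -0.162. These 3 lists thus kept their sign without the libraries and turned to the other side of 0 with the covariate. Averaged over time points the score was itself higher by 0.858 under WL, though within the spread between libraries. As a covariate it can therefore take up part of a WL difference. Callose turned under both changes (0.0492, -0.0259 and -0.0449), as did the water deprivation list (-0.0371, 0.0218 and 0.37), and the cold or temperature list turned without the libraries (0.0279, -0.0155 and 0.0955). By time point, the median of the monosaccharide list was 0.0161 at ZT1, 0.487 at ZT7, -0.202 at ZT13 and 0.576 at ZT19, and at ZT7 it was 1.22 with both libraries left out.

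The other lists kept their sign under both changes, most of them at a smaller size. The immune list had a level median of -0.468 with all libraries, -0.326 without both libraries and -0.285 with the covariate. In the same order, systemic acquired resistance had -0.66, -0.326 and -0.477, programmed cell death -0.392, -0.267 and -0.204, and leaf senescence -0.367, -0.237 and -0.135. Autophagy had -0.165, -0.213 and -0.198, and so was not nearer to 0 under either change. Among the sugar lists, glyceraldehyde-3-phosphate metabolism had 0.434, 0.263 and 0.214, disaccharide metabolism and transport -0.376, -0.229 and -0.263, and pectin -0.215, -0.175 and -0.251. Glycosylation had -0.447, -0.318 and -0.333. Over all genes the median was -0.00492, -0.0252 and -0.0188. The part of the axis score in these lists was not tested otherwise.

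**Figure D5:**
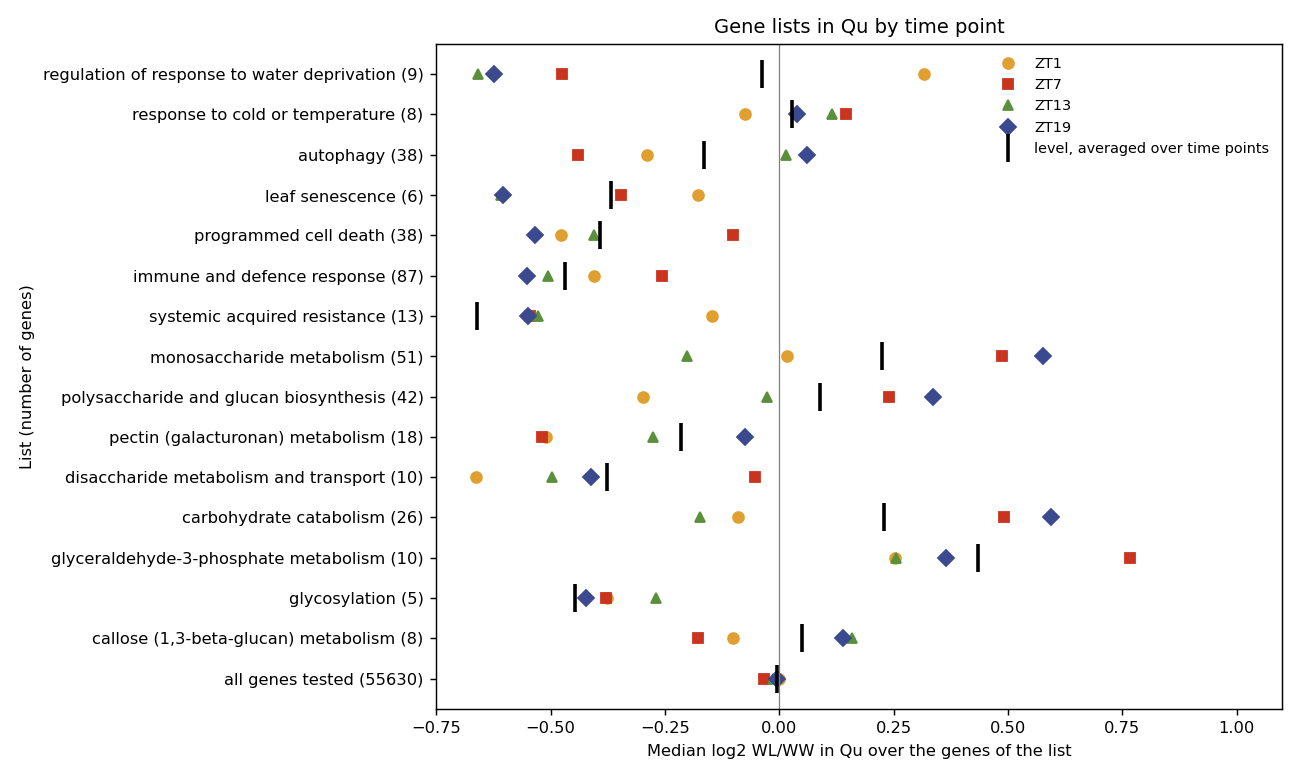
Median log2 fold change (WL over WW) in Qu over the genes of each list, at each time point and in level (black line), with the number of genes of each list and, in the last row, all genes tested. Immune, cell death and senescence lists lie below 0 at all time points, whereas the monosaccharide and carbohydrate catabolism lists lie above 0 at ZT7 and ZT19 and at or below 0.0161 at ZT1 and ZT13.

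The last comparison was the balance of the subgenomes. BnA identifiers held 44.7 ± 0.519% of the counts in WL libraries (SD, n = 11), against 44.5 ± 0.428% in WW libraries (SD, n = 12). Averaged within time points, the BnA share was higher by 0.250 percentage points under WL, which was within the spread between libraries (exact permutation test, two-sided, p = 0.0889). The difference was 0.635 at ZT7, where the shares were 45.28, 45.69 and 45.27% under WL, against 45.52, 44.23 and 44.58% under WW. The high WW value was again that of replicate 1. At the other time points it was 0.096 (ZT1), 0.058 (ZT13) and 0.213 (ZT19). With both libraries that stood apart left out, the difference averaged within time points was 0.333 (exact permutation test, two-sided, p = 0.046). These libraries were chosen after the data had been seen, and 1 of them has the highest share of all WW libraries (45.52%). That p-value therefore follows in part from the choice and is not read as a result.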

How the data were processed

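Leaf RNA libraries (Illumina TruSeq Stranded mRNA, paired-end) were processed by the authors, who used Trimmomatic 0.33 for trimming, HISAT2 2.1.0 for mapping to a joined reference (TO1000 of B. oleracea, R500 of B. rapa) and featureCounts for strand-specific counting. Each alignment of a read with several places received a fraction of it, so the values the authors deposited are estimated counts, not whole, and not normalized. The authors also deposited log2 FPKM values, normalized with edgeR, without genes that did not vary. These were used only for an alternative. No columns of the authors' own comparisons were held, and 0 columns were left unused.

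The estimated counts were rounded and fitted with edgeR 4.0.16 in R 4.3.3 (legacy quasi-likelihood, TMM normalization, filterByExpr) as 8 group means of the 23 Qu libraries, with 8 tests, each adjusted by the Benjamini-Hochberg method over all 55630 genes and called at 0.01. The common biological coefficient of variation was 0.475. The difference from the other accessions was fitted over 354 libraries in 128 groups with 1 common dispersion, by the same quasi-likelihood method. Limma 3.58.1 and DESeq2 1.42.0 served as alternatives. CPM used TMM-scaled library sizes, and the log CPM behind the axis score a prior count of 2. Depth was 8682136 to 25843518 counts per Qu library. DiPALM, the program of the study, was not installed, and the interaction and level tests stand in for it.

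On simulated counts with the means and spread of Qu and 100 changed genes, edgeR recovered 91 genes changed in level by 3 (log2) with 2 false calls, and 89 pattern genes changed by 4 with 2 false calls. DESeq2 recovered 100 level genes with 28 false calls and 95 pattern genes with 54. For the difference from the other accessions, 87 of 100 genes changed by 2 were recovered among 3000, with 0 false calls. Smaller changes, and spread shared between genes, were not simulated.

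The members and the lists were chosen with earlier results of these data known. Named genes were the 6 with the smallest p higher at all 4 time points and the 6 lower, the 2 each way per time point, the 4 of the interaction, the first of each time-of-day test, the 3 each way of the difference from other accessions, the 5 each way called in the most other accessions, and the member of each list with the smallest p. Bo3g001800, Bo5g137400, Bo5g111260, BraA04g16840R and the rest of the 15 level genes were named after their values had been seen. Alternatives were RLE size factors, no filter, an adjusted p of 0.05, DESeq2, limma on the deposited log2 FPKM, the replicate number as a block, and leaving out each replicate number and each library. The axis score as a covariate, leaving out both libraries that stood apart, and counts at an unadjusted p of 0.05 were chosen after seeing the data. The replicate numbers did not pair the libraries.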

Additional observations from a re-analysis of the deposited data

How the results depend on the processing

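Counts are at an adjusted p of 0.01 unless 0.05 is named. For the level response, 0 genes passed in edgeR, 15 at 0.05, 395 with DESeq2, 1 with the axis score as a covariate, 0 to 1 with a replicate number left out and 0 to 5 with a single library left out. RLE size factors, no filter on low counts and limma on the deposited log2 FPKM also gave 0. At ZT7 the count was 686 with DESeq2, 59 without the 2 libraries that stood apart (3280 at 0.05), 0 with the axis score as a covariate (1248 at 0.05), 0 to 382 without a replicate number (382 without replicate 1) and 0 to 14 without a single library. DESeq2 called 9 genes at ZT1, 4 at ZT13, 7 at ZT19 and 5 in the interaction test, while leaving out a replicate number or library gave 0 to 1 at ZT1, 0 at ZT13 and ZT19, and 0 to 1 in the interaction test. For time-of-day change under WL the count was 3414 at 0.05, 4685 with DESeq2, 2565 with the axis score, 2360 without the 2 libraries, 8 to 2099 without a replicate number and 647 to 1863 without a library. Under WW it was 3871 at 0.05, 5029 with DESeq2, 31 to 1527 without a replicate number and 698 to 1606 without a library. The difference from the other accessions gave 0 genes, 2 with limma-voom and 0 to 1 without a replicate number, and at 0.05 it gave 3, 11 with limma-voom and 1 to 2 without a replicate number. The BnA difference was 0.17 to 0.39 without a replicate number and 0.33 without the 2 libraries. Of genes called in 5 or more other accessions, 6 were tested in Qu, and 100% had the direction seen there. For 3 or more accessions it was 98.6% of 73 genes (98.6 to 100% without a replicate number), which include the 6. Among 65 results for single genes, 1874 alternatives left the call and the value in place, 36 turned a gene into a passing one, 57 moved it, and 0 reversed it. Among these genes only Bo3g001090 passed 0.01 with all libraries, and most alternatives left out a single library and shared the rest. Much of this tally was therefore fixed beforehand, and it is no separate support. The cause of the changes listed here was not tested.

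With the replicate number as a block, time-of-day change was called for 891 genes under WL and 952 under WW, and 0 genes in the other 6 tests of Qu (2 at 0.05 in level). To look for pairing, the deviations of libraries from their group means were correlated. Libraries of different groups with the same number were not more alike (mean r of -0.053, against 0.026 for different numbers). By mean r, 3 of 23 libraries were nearest to the libraries of their own number. Of 11 pairs of a WL and a WW library with the same number and time point, 4 exceeded 0.1. The samples therefore share only a number. A replicate block in the fit over all accessions was not run.

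The median SE of a log2 fold change was 0.225 in level and 0.433 to 0.490 at a single time point, so changes smaller than these lie within the error.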

Other observations

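Both subgenomes took part in the small-p genes of Qu in similar shares. In level, 1511 BnA genes were higher and 2039 lower under WL at an unadjusted p of 0.05 (13.8% of 25790), and 1693 BnC genes were higher and 2147 lower (12.9% of 29768). At ZT7, 1397 BnA genes were higher and 2360 lower (14.6%), and 1526 BnC genes were higher and 2569 lower (13.8%). The difference between the subgenomes was not tested.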
